A study of Mus musculus with 4 samples.

Results

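The genes described here are 40 genes of glucose breakdown: the transporters that bring glucose into the cell, the enzymes of glycolysis, the lactate dehydrogenases and lactate transporters, and the carrier and dehydrogenase system that takes pyruvate into mitochondria. They were taken by symbol from a list of enzymes and transporters of these steps, by a rule that reads no measured value, and are 40 of the 54752 genes in the deposited tables. All 40 had enough counts to be tested. The data are RNA-seq counts of CD4+ T cells that were cultured under conditions for T follicular helper (Tfh) cells, the T cells that help B cells in germinal centres. Naïve CD4+ T cells of the spleen were activated with plate-bound anti-CD3 and anti-CD28 in the presence of IL-6 while IL-4, IFN-γ, TGF-β and IL-2 were blocked by antibodies, and viable cells were sorted on day 3. There were 2 libraries of WT cells and 2 of Mek1/2-tKO cells, with 16330802 to 18931090 counts each. Mek1/2-tKO mice carry floxed alleles of Map2k1 and Map2k2 and a Cre gene under the Cd4 promoter, so that both kinases, which activate ERK, are to be deleted in developing T cells, CD4+ and CD8+ alike. WT mice were the controls on the same C57BL/6 background. The age of the mice, and whether the 2 libraries of a genotype came from separate mice, were not given in the sources used here, so the p-values measure the spread between these libraries, which may be technical.

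Glycolysis splits a sugar with 6 carbons into pyruvate and gains ATP and NADH on the way. Activated T cells take up large amounts of glucose and send much of the pyruvate to lactate, which restores NAD+ and leaves the cell through proton-coupled transporters. The remaining pyruvate enters mitochondria through a carrier and is turned into acetyl-CoA by the pyruvate dehydrogenase complex, which kinases switch off by phosphorylation.

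The level of a gene is given as CPM (counts scaled to a common library size), with TMM scaling between libraries. Differences between the genotypes were tested with edgeR (quasi-likelihood test, Benjamini-Hochberg adjustment) across the 14330 genes with enough counts. A call as lower or higher needed an adjusted p under 0.05 and a change of at least 1.5-fold. Log2 fold changes are Mek1/2-tKO over WT, with their standard errors (SE). With 2 libraries against 2, the smallest two-sided p of an exact permutation test of a single value is 0.333, so the adjusted p-values rest on the variance model fitted across all genes.

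The libraries were first checked against their labels. Map2k1 had 181 and 187 CPM in the WT libraries and 97.9 and 105 CPM in the Mek1/2-tKO libraries, and was called lower. Map2k2 had 154 and 165 CPM in WT and 172 and 182 CPM in Mek1/2-tKO, and was not called; a count over a whole gene cannot tell a transcript that lacks floxed exons from a complete one. Cd4, the gene that defines the labelled cell type, had 297 and 289 CPM in WT but 18.8 and 25.1 CPM in Mek1/2-tKO, which goes against the label of the Mek1/2-tKO cells. The summed level of 8 T-cell identity genes in Mek1/2-tKO was 61.9% of that in WT, with 5 of the 8 called lower. The fall was not uniform. Cd3d and Cd3g did not fall (log2 fold changes 0.20 and 0.24, not called), and Lat did not reach 1.5-fold (-0.55). All 10 B-lineage markers were called higher, and their summed level was 1281 and 1260 CPM in WT against 6732 and 6687 CPM in Mek1/2-tKO. The CD8 genes summed to 59.2 to 67.4 CPM in WT and 214 to 238 CPM in Mek1/2-tKO, the 7 NK-cell markers to 31.5 to 37.3 and 197 to 214 CPM, and the 5 gamma-delta T-cell markers to 4.35 to 6.97 and 165 to 184 CPM. Markers of myeloid cells (Adgre1 and S100a8 had 0 counts in both WT libraries) and of erythroid cells stayed below 23 CPM in sum in every library, with 5 of 7 and 3 of 5 tested and called higher. These marker levels moved with the genotype, and so with every difference described below, and their part in it was not tested. In such bulk libraries, fewer cells of a type and less RNA per cell cannot be told apart.

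Several of these genes carry, in the bases before the start of their RefSeq transcript, the letters ACGTG or their reverse complement CACGT, the core of the sequence that HIF-1 binds. CACGTG, the E-box that MYC binds, contains the same letters. Stretches of promoters are shown for 6 of the genes that had a match and were called lower, chosen for their roles as the glycolytic lactate exporter (Slc16a3), the main glucose importer (Slc2a1), the first kinase (Hk2), the ATP-forming steps (Pgk1 and Pkm) and lactate formation (Ldha). They are RefSeq sequences of GRCm38.p6, 5′ to 3′ on the strand of the gene, and the capitals mark every ACGTG or CACGT, including where they overlap as CACGTG. The first capital lies 27 bases before the start in Slc16a3, 36 in Slc2a1, 52 in Hk2, 150 in Pgk1, 75 in Pkm and 48 in Ldha.
Slc16a3, chr11:120949013-120949066, plus strand: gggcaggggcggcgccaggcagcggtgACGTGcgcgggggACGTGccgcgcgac
Slc2a1, chr4:119108682-119108740, plus strand: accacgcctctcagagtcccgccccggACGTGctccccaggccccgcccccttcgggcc
Hk2, chr6:82774475-82774533, minus strand: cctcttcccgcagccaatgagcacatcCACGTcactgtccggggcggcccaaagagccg
Pgk1, chrX:106186923-106186981, plus strand: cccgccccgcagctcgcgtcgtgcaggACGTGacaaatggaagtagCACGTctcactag
Pkm, chr9:59657125-59657183, plus strand: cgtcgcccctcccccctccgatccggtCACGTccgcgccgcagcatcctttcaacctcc
Ldha, chr7:46845729-46845788, plus strand: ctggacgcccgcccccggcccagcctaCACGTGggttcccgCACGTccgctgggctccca

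ACGTG, on either strand, was searched in the promoter windows of RefSeq, from 250 bases before to 50 bases after each start. A window was given for 38 of the 40 genes, and not for Slc2a3 and Pdp1. A match stood in 20 of the 38 genes (52.6%), against 21.8% of all 27025 genes with a window and 29.6% of the 9584 of them that were tested here. Among the genes called lower, 13 of 20 with a window held it (65.0%), against 549 of 1746 genes called lower in the whole table (31.4%). Among those not called, 5 of 14 held it, against 1858 of 6159 genes not called in the whole table (30.2%). Among those called higher, 2 of 4 held it. Over the whole table, the share was thus similar for genes called lower and genes not called. CACGTG was less frequent, in 6 of the 38 genes (15.8%), against 11.8% of all tested genes. These shares count genes with a match in any window. The 38 genes had more windows per gene (58 in all) than the tested genes (12172 for 9584). Per window, CACGTG stood in 10.3% for the 38 genes and 9.97% for all tested genes. Among genes called lower, CACGTG stood in 9.38% of windows against 10.5% in the whole table. ACGTG stayed more frequent per window, at 41.4% against 25.6%, and at 46.9% against 26.6% among genes called lower. Among genes not called, it stood in 35.0% of windows for the 38 genes against 26.3% in the whole table. Pfkl, Tpi1, Pdk1, Ldhb, Eno1, Pfkp and Gpi1, all called lower, had no match in their windows. A match is a description of the letters and not of a bound site, and no binding was measured here.

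Read as a whole, the RNA levels of these genes were lower in the Mek1/2-tKO libraries, whose cell-type markers also differed, as given above. Of the 40 genes, 21 were called lower (52.5%), 4 were called higher and 15 were not called. Over all 14330 genes tested, 16.4% were called lower and 19.3% higher, 35.8% in either direction. A fall of at least 2-fold was called for 15 of the 40, against 7.26% of all genes. In 29 of the 40 genes both Mek1/2-tKO libraries lay below both WT libraries, which held for 38.8% of all genes, and in 6 genes they lay above both, against 39.5%. The median log2 fold change was -0.64 over the 40 genes and 0.02 over all genes. Genes of the same length range, 1570 to 13401 bases, had a median of -0.08 with 18.6% called lower, and genes with a mean of at least 64 CPM had a median of -0.05 with 17.8% called lower.

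**Figure D1:**
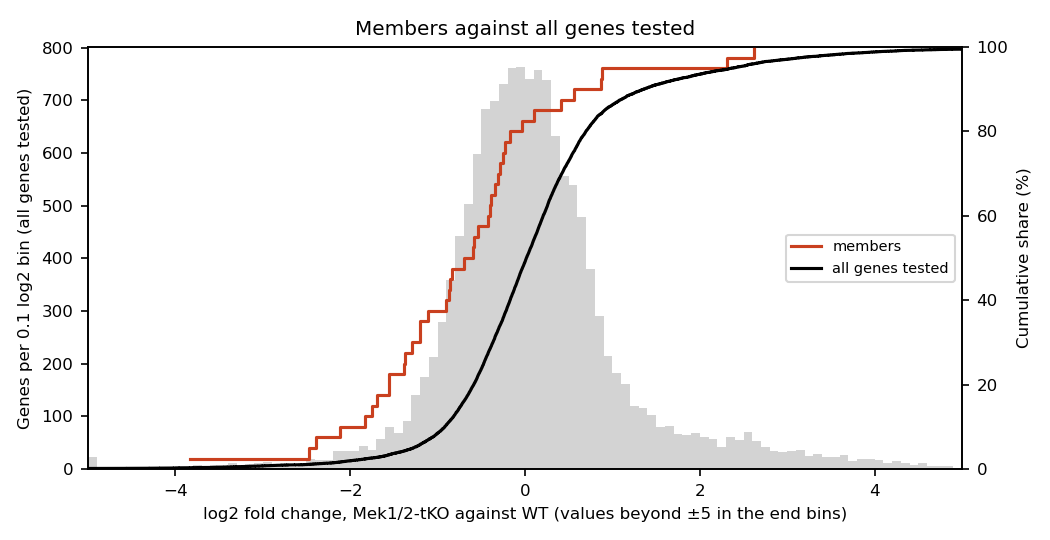
Cumulative share of genes (vertical axis, percent) by log2 fold change of Mek1/2-tKO over WT (horizontal axis), for the 40 genes of glycolysis, transport and pyruvate entry and for all 14330 genes tested. 82.5% of the 40 genes lie below 0, against 49.1% of all genes.

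The fall also showed in the share of all RNA that these genes took. The 40 genes made up 1.75 and 1.77% of all counts in the WT libraries and 0.780 and 0.799% in the Mek1/2-tKO libraries. Their summed level was 16892 and 17250 CPM in WT and 8222 and 8044 CPM in Mek1/2-tKO, which is 47.6% of the WT mean. Ldha, Pkm and Aldoa carried 57.4 to 58.8% of these counts in every library. The sum therefore describes mainly a few abundant enzymes. Of the 31 genes of glycolysis, glucose and lactate transport, 20 were called lower and 1 higher, with a median log2 fold change of -0.87. Of the 9 genes of mitochondrial pyruvate entry, 1 was called lower and 3 higher, against 16.4 and 19.3% of all genes tested. The median log2 fold change of the 9 was -0.25. The summed level in Mek1/2-tKO was 46.6% of WT for the former and 71.2% for the latter, and 2 of the 3 calls as higher, Mpc1 and Pdk2, were lost when 1 library was left out. The difference between these groups of genes was not tested.

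**Figure D2:**
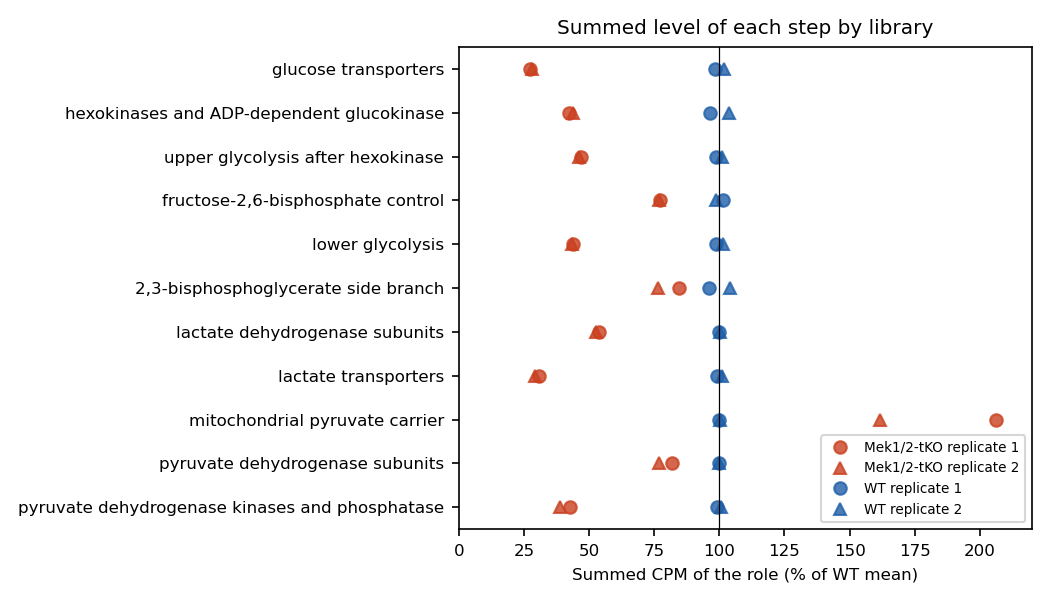
Summed TMM-scaled level of each functional group in each library (CPM, as a percent of the WT mean of that group), with 2 points per genotype. The glucose transporters and the lactate transporters are lowest in Mek1/2-tKO, at 27.7 and 30.0% of WT, and the mitochondrial pyruvate carrier is at 184%.

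The fall was not even along the pathway. Transport at both ends of the pathway showed the lowest sums, with the 2 glucose transporters at 27.7% and the 2 lactate transporters at 30.0% of the WT level. The hexokinases with Adpgk stood at 43.2%, the enzymes from glucose phosphate isomerase to triosephosphate isomerase at 46.6%, those from Gapdh to Pkm at 43.7% and the lactate dehydrogenases at 53.2%. The enzymes that set fructose 2,6-bisphosphate, a strong activator of phosphofructokinase, stood at 77.0%. The enzymes of the 2,3-bisphosphoglycerate side branch stood at 80.7% and the 3 measured pyruvate dehydrogenase subunits at 79.3%. The kinases and phosphatase of pyruvate dehydrogenase stood at 40.7% by CPM, where Pdk1 made up most of the sum in WT. Per length of the merged exons of each gene, this last group stood at 55.7%, and Pdk1 held 48.2% of the kinases in WT.

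**Figure D3:**
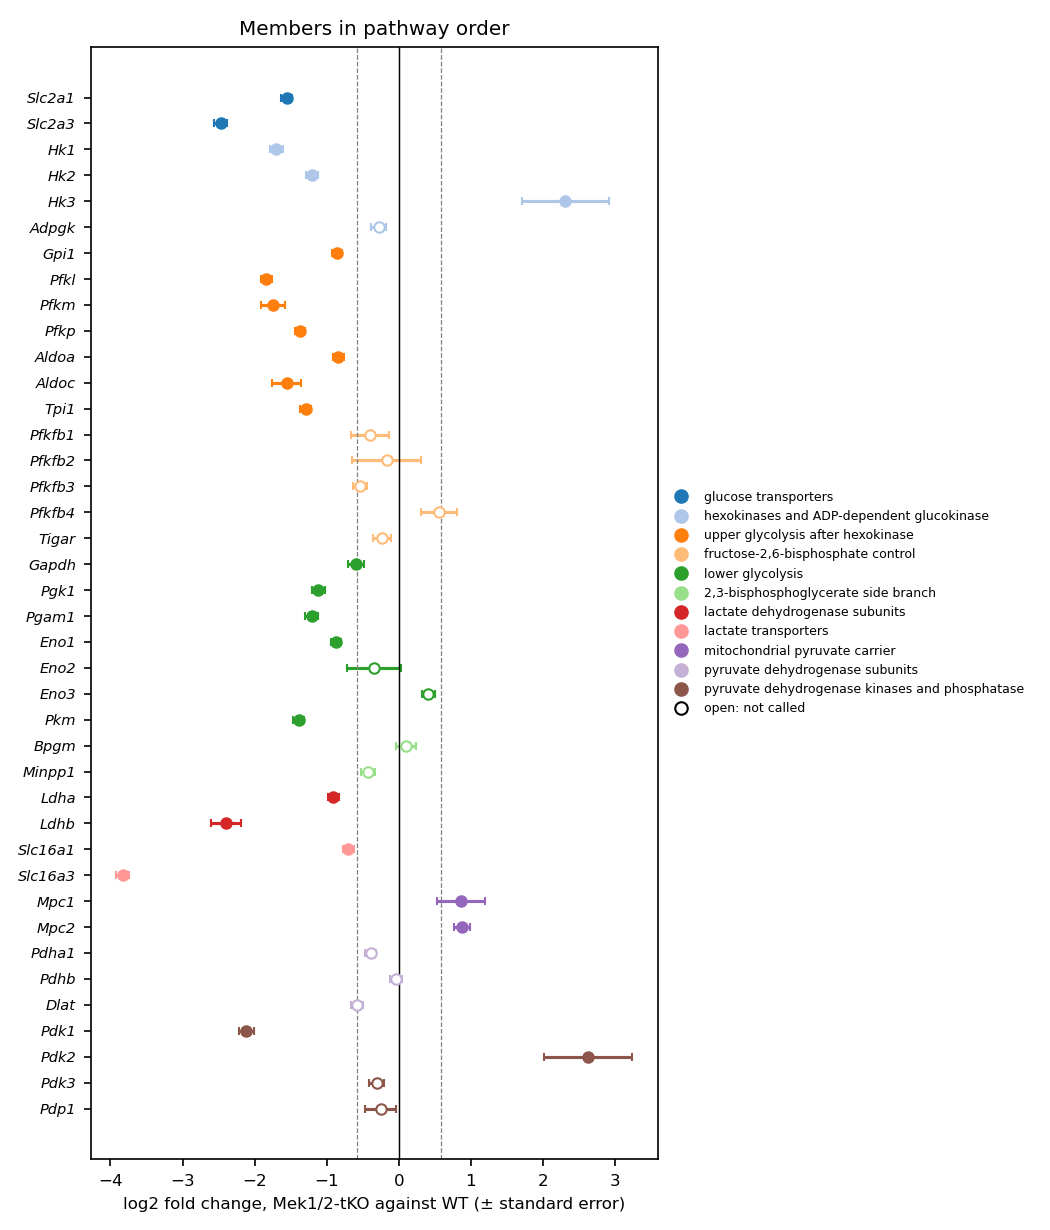
Log2 fold change of Mek1/2-tKO over WT for each of the 40 genes, ordered and coloured by role. Bars are 1 standard error (edgeR quasi-likelihood fit, 2 libraries per genotype). Filled points were called lower or higher, and open points were not called. The values run from -3.83 (Slc16a3) to 2.62 (Pdk2), and the genes called higher are Hk3, Mpc1, Mpc2 and Pdk2.

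Glucose enters T cells mainly through GLUT1, encoded by Slc2a1. Slc2a1 had 274 and 287 CPM in WT and 94.7 and 96.4 CPM in Mek1/2-tKO. The genotypes did not overlap, and its log2 fold change was -1.55 (SE 0.08, adjusted p = 2.24e-09 in edgeR's quasi-likelihood test). Slc2a3, which encodes the high-affinity transporter GLUT3, had 184 and 186 CPM in WT and 31.9 and 34.8 CPM in Mek1/2-tKO. It fell further than Slc2a1, with a log2 fold change of -2.47 (SE 0.09, adjusted p = 1.30e-10 in edgeR's quasi-likelihood test). Per length of merged exons, Slc2a1 took 75.8% of the transporter pair in WT and 85.6% in Mek1/2-tKO.

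Hexokinases trap glucose in the cell by phosphorylation. Hk1, the broadly expressed isoenzyme, had 217 and 238 CPM in WT and 66.0 and 74.0 CPM in Mek1/2-tKO, a log2 fold change of -1.70 (SE 0.09, adjusted p = 4.22e-09 in edgeR's quasi-likelihood test). Hk2, the isoenzyme that rises on activation in many cell types, had 211 and 231 CPM in WT and 95.6 and 96.7 CPM in Mek1/2-tKO, a log2 fold change of -1.20 (SE 0.08, adjusted p = 5.07e-08 in edgeR's quasi-likelihood test). For both genes the replicates lay close together and far from the other genotype. Hk3, an isoenzyme known from myeloid cells, was near the limit of detection, with 7 and 12 counts in WT and 22 and 65 counts in Mek1/2-tKO. It was called higher with a log2 fold change of 2.31 (SE 0.60, adjusted p = 0.00527 in edgeR's quasi-likelihood test), but the 2 Mek1/2-tKO libraries differed widely and the call was lost without Mek1/2-tKO replicate 2 (log2 fold change 1.51, adjusted p = 0.178 in the same test). Adpgk, the ADP-dependent glucokinase of the endoplasmic reticulum, had 66.2 and 63.7 CPM in WT and 55.3 and 51.7 CPM in Mek1/2-tKO and did not reach 1.5-fold (log2 fold change -0.28).

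After the first kinase, Gpi1 turns glucose phosphate into fructose phosphate. Gpi1 had 435 and 430 CPM in WT and 233 and 244 CPM in Mek1/2-tKO, a log2 fold change of -0.86 (SE 0.07, adjusted p = 4.08e-07 in edgeR's quasi-likelihood test). Phosphofructokinase, the committed step, is built from subunits encoded by Pfkl (liver type), Pfkm (muscle type) and Pfkp (platelet type), and all 3 were called lower. Pfkl had 426 and 447 CPM in WT and 119 and 125 CPM in Mek1/2-tKO, a log2 fold change of -1.84 (SE 0.08, adjusted p = 3.90e-10 in edgeR's quasi-likelihood test). Pfkp had 667 and 693 CPM in WT and 268 and 258 CPM in Mek1/2-tKO, a log2 fold change of -1.37 (SE 0.07, adjusted p = 4.86e-09 in the same test). Pfkm was scarce, at 25.2 and 22.8 CPM in WT and 7.23 and 7.08 CPM in Mek1/2-tKO, and fell by 1.75 on the log2 scale (SE 0.16, adjusted p = 1.18e-06 in the same test). The 3 subunits thus all fell well beyond the spread of their replicates. Aldoa, the main aldolase, had 2020 and 2069 CPM in WT and 1146 and 1145 CPM in Mek1/2-tKO, a log2 fold change of -0.84 (SE 0.07, adjusted p = 5.72e-07 in the same test). Aldoc, the aldolase known from brain, had 20.2 and 15.6 CPM in WT and 6.52 and 5.69 CPM in Mek1/2-tKO, a log2 fold change of -1.55 (SE 0.20, adjusted p = 1.94e-05 in the same test). Tpi1, which interconverts the triose phosphates that aldolase makes, had 1569 and 1606 CPM in WT and 668 and 631 CPM in Mek1/2-tKO, a log2 fold change of -1.29 (SE 0.08, adjusted p = 1.01e-08 in the same test). Every enzyme between the hexokinases and the triose phosphates was therefore lower, 7 of 7.

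The genes that make and remove fructose 2,6-bisphosphate were nearer to their WT levels. By edgeR's quasi-likelihood test, 0 of the 5 were called in either direction, against 35.8% of all genes tested. DESeq2 also called 0 of the 5. A count over 5 genes is too small to set this step apart from all genes. Without a fold threshold, 3903 of all 14330 genes tested were lower and 3983 higher at an adjusted p under 0.05 in edgeR's test. At an unadjusted p under 0.05 in that test, 1 of the 5 genes was lower and 1 higher, and at least as many of all genes passed as at the adjusted p. Pfkfb3, the most abundant of them, had 81.8 and 84.8 CPM in WT and 55.8 and 58.7 CPM in Mek1/2-tKO. Its log2 fold change of -0.54 (SE 0.09, adjusted p = 2.90e-04 in edgeR's quasi-likelihood test) passed the p threshold but not 1.5-fold, which it did pass without Mek1/2-tKO replicate 2 (-0.59). Tigar, a phosphatase of this metabolite, had 41.7 and 35.5 CPM in WT and 34.7 and 31.3 CPM in Mek1/2-tKO (log2 fold change -0.23). The remaining isoenzymes lay below 8 CPM in every library, with log2 fold changes of -0.40 for Pfkfb1, -0.17 for Pfkfb2 and 0.56 for Pfkfb4. Of these, Pfkfb2 overlapped between the genotypes.

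The later section of the pathway, where ATP is gained, was led by Pkm, the pyruvate kinase. Pkm had 3486 and 3664 CPM in WT and 1370 and 1367 CPM in Mek1/2-tKO, a log2 fold change of -1.39 (SE 0.08, adjusted p = 5.76e-09 in edgeR's quasi-likelihood test). Pgk1, which forms the first ATP, had 256 and 250 CPM in WT and 128 and 106 CPM in Mek1/2-tKO, a log2 fold change of -1.11 (SE 0.09, adjusted p = 3.10e-07 in the same test). Pgam1, the phosphoglycerate mutase, had 146 and 144 CPM in WT and 61.2 and 64.4 CPM in Mek1/2-tKO, a log2 fold change of -1.21 (SE 0.09, adjusted p = 8.18e-08 in the same test). Each of these enzymes fell by more than 2-fold. Eno1, the main enolase, had 986 and 957 CPM in WT and 531 and 530 CPM in Mek1/2-tKO, a log2 fold change of -0.87 (SE 0.07, adjusted p = 3.48e-07 in the same test). Eno3, the muscle-type enolase, went the other way, with 71.3 and 73.6 CPM in WT and 101 and 92.0 CPM in Mek1/2-tKO, but did not reach 1.5-fold (log2 fold change 0.41, adjusted p = 0.00191 in the same test). Eno2, the neuronal enolase, lay between 2.02 and 3.73 CPM in all libraries and the genotypes overlapped.

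Gapdh, the dehydrogenase between the triose phosphates and Pgk1, had a low count for a gene known to be abundant. It had 60.70 and 64.04 CPM in WT and 44.2 and 38.7 CPM in Mek1/2-tKO, a log2 fold change of -0.59 (SE 0.11, adjusted p = 4.03e-04 in edgeR's quasi-likelihood test). This change lay at the edge of the 1.5-fold threshold, and the call was lost without WT replicate 2 (log2 fold change -0.55) or without Mek1/2-tKO replicate 2 (-0.50). It was also lost with at least 10 counts in every library (-0.57) and in edgeR's glmTreat test against 1.5-fold (adjusted p = 0.576). Only uniquely mapped reads were counted, and in the reference transcripts 22.6% of the 75-base windows of Gapdh also occurred in other genes, 121 in number. The same held for 52.8% of the windows of Pgk1, 34.9% of those of Pgam1 and 23.0% of those of Eno1. The levels of these genes are therefore uncertain against other genes, and how far the uncounted reads bear on them was not tested. Pkm shared 15.3% of its exon bases with an overlapping gene model on the same strand, Gm49759. In the side branch that makes 2,3-bisphosphoglycerate, Bpgm had 18.7 and 21.0 CPM in WT and 22.5 and 20.2 CPM in Mek1/2-tKO and overlapped between the genotypes. Minpp1, which removes this metabolite, had 82.2 and 88.1 CPM in WT and 66.5 and 60.3 CPM in Mek1/2-tKO and did not reach 1.5-fold (log2 fold change -0.43, 23.1% of its windows shared).

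**Figure D4:**
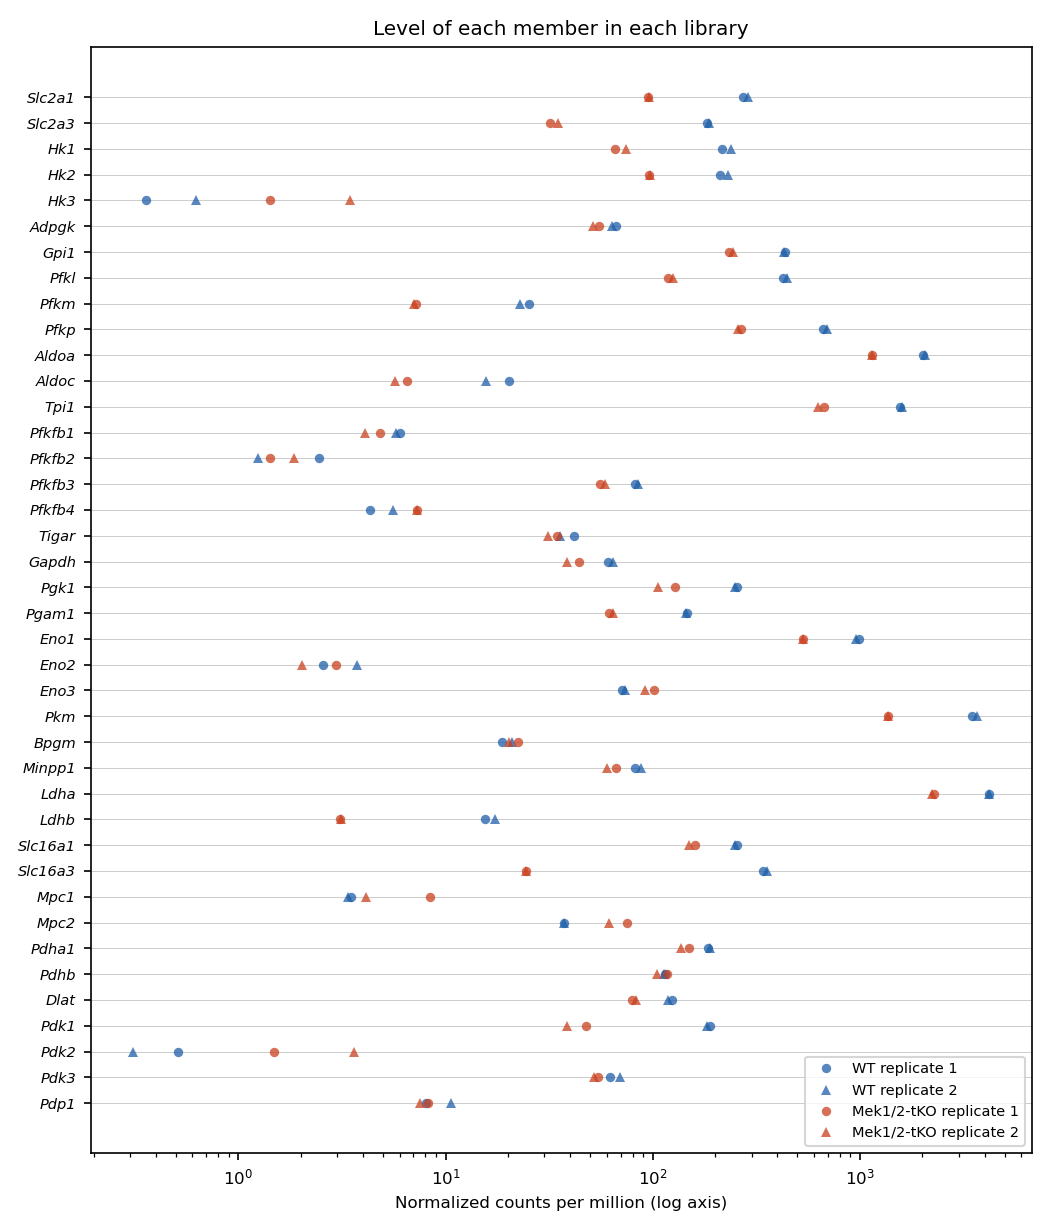
Level of each of the 40 genes in each library (TMM-scaled CPM, log axis), with 2 WT and 2 Mek1/2-tKO points per gene and genes ordered by role. The points of Slc16a3 lie at 341 and 356 CPM in WT and 24.5 and 24.4 CPM in Mek1/2-tKO, the widest gap, and the points of Pdhb overlap.

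Lactate dehydrogenase turns pyruvate into lactate, and Ldha, its muscle-type subunit, was the most abundant of the 40 genes per length. Ldha had 4198 and 4213 CPM in WT and 2270 and 2219 CPM in Mek1/2-tKO, a log2 fold change of -0.91 (SE 0.08, adjusted p = 3.39e-07 in edgeR's quasi-likelihood test). Ldhb, the heart-type subunit, had 15.6 and 17.3 CPM in WT and 3.10 and 3.14 CPM in Mek1/2-tKO, a log2 fold change of -2.40 (SE 0.21, adjusted p = 5.76e-07 in the same test). Both subunits fell, while Ldha held over 99% of the pair in each genotype, 99.2% in WT and 99.7% in Mek1/2-tKO per length.

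Lactate leaves the cell through the monocarboxylate transporters MCT1 (Slc16a1) and MCT4 (Slc16a3), of which MCT4 is the export form of highly glycolytic cells. Slc16a3 had 6645 and 6874 counts in WT and 380 and 459 in Mek1/2-tKO, or 341 and 356 CPM against 24.5 and 24.4 CPM. It was the member with the lowest log2 fold change, -3.83 (SE 0.09, adjusted p = 1.50e-12 in edgeR's quasi-likelihood test), and 7.02% of its WT level was left. Slc16a1 had 254 and 249 CPM in WT and 160 and 151 CPM in Mek1/2-tKO, a log2 fold change of -0.70 (SE 0.08, adjusted p = 4.44e-06 in the same test), and was not called in a test against 1.5-fold itself (adjusted p = 0.0999 by edgeR's glmTreat). The pair was near balance in WT, where Slc16a3 took 53.5% of it per length, and in Mek1/2-tKO Slc16a1 took 88.4%.

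The genes of pyruvate entry into mitochondria moved in both directions, as did all genes tested. Of the 9, 1 was called lower and 3 higher, against 16.4 and 19.3% of all genes tested. By the unadjusted p of edgeR's test (under 0.05), 4 of the 9 were lower and 3 higher. Such counts are common in these libraries. Without a fold threshold, 3903 of all 14330 genes tested were lower and 3983 higher at an adjusted p under 0.05. At an unadjusted p under 0.05, at least as many of all genes passed. The carrier is a dimer of MPC1 and MPC2. Mpc2 had 37.2 and 37.4 CPM in WT and 75.5 and 61.6 CPM in Mek1/2-tKO, and was higher with a log2 fold change of 0.88 (SE 0.12, adjusted p = 2.62e-05 in edgeR's quasi-likelihood test). Mpc1 was scarce, with 68 and 65 counts in WT and 131 and 78 in Mek1/2-tKO. Its call as higher (log2 fold change 0.87, SE 0.34, adjusted p = 0.0419 in edgeR's quasi-likelihood test) rested on Mek1/2-tKO replicate 1, without which the log2 fold change was 0.28. The call was also lost without WT replicate 2, with the replicate number as a block (log2 fold change 0.80, adjusted p = 0.0508 in the same test) and in DESeq2 (adjusted p = 0.0686). Library size alone (adjusted p = 0.0514 in edgeR's quasi-likelihood test) and edgeR's glmTreat (adjusted p = 0.273) did not call it either. In addition, 23.1% of the exon bases of Mpc1 lie opposite another gene, and whether the counting used the strand was not given in the sources used here. The pyruvate dehydrogenase subunits were closer between the genotypes. Pdha1, of the E1 alpha subunit, had 184 and 190 CPM in WT and 149 and 136 CPM in Mek1/2-tKO (log2 fold change -0.39, not called). Pdhb, of the E1 beta subunit, had 114 and 113 CPM in WT and 117 and 105 CPM in Mek1/2-tKO (log2 fold change -0.04) and overlapped. Dlat, of the E2 core, had 124 and 119 CPM in WT and 79.1 and 83.0 CPM in Mek1/2-tKO, a log2 fold change of -0.58 that lay just short of 1.5-fold (SE 0.09, adjusted p = 7.64e-05 in edgeR's quasi-likelihood test). Dlat was called lower without WT replicate 2 (-0.61) or without Mek1/2-tKO replicate 2 (-0.62).

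The kinases that shut the pyruvate dehydrogenase complex diverged. Pdk1 had 189 and 183 CPM in WT and 47.5 and 38.5 CPM in Mek1/2-tKO, a log2 fold change of -2.12 (SE 0.10, adjusted p = 2.07e-09 in edgeR's quasi-likelihood test). It was the only mitochondrial gene of the 9 that was called lower, with 23.1% of its WT level left. Pdk3 had 62.1 and 69.2 CPM in WT and 54.3 and 52.0 CPM in Mek1/2-tKO and did not reach 1.5-fold (log2 fold change -0.30). Pdk2 had 10 and 6 counts in WT and 23 and 68 counts in Mek1/2-tKO. It was called higher (log2 fold change 2.62, SE 0.61, adjusted p = 0.00253 in edgeR's quasi-likelihood test), and the call was lost without Mek1/2-tKO replicate 2 (log2 fold change 1.82, adjusted p = 0.112 in the same test). The phosphatase gene Pdp1, which reverses the kinases, had 8.05 and 10.6 CPM in WT and 8.195 and 7.501 CPM in Mek1/2-tKO, with overlap.

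The mRNA shares of the isoenzymes changed at some steps and not at others. Shares were computed per length of the merged exons of each gene, within each library, and are means of 2 libraries without a test. Merged exons can be longer than any 1 transcript, so shares between genes depend on this scaling. Among the phosphofructokinase subunits Pfkl went from 53.0 ± 0.468% in WT to 45.7 ± 1.55% in Mek1/2-tKO and Pfkp from 41.1 ± 0.0902 to 48.9 ± 1.46% (SD, n = 2 each), so their order turned. Without the scaling by length Pfkp was ahead in both genotypes, at 59.6 and 67.0% of the counts. Among the hexokinases Hk2 went from 58.0 to 64.6% and Hk1 from 41.8 to 32.8%, with Hk2 first in both genotypes, although without the scaling by length Hk1 held 50.6% of the counts in WT. Eno3 went from 18.7 to 35.9% of the enolases and Eno1 from 81.0 to 63.8%, with the shared windows of Eno1 given above. Without the scaling by length Eno3 was at 6.92 and 15.3% of the counts, in the same direction. Pdk1 and Pdk3 were near balance in WT, at 48.2 and 51.5%, whereas Pdk3 held 76.6% in Mek1/2-tKO. Without the scaling by length Pdk1 went from 73.8 to 43.4% of the counts, in the same direction. Aldoa stayed above 99% of the aldolases, at 99.2 and 99.5%.

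**Figure D5:**
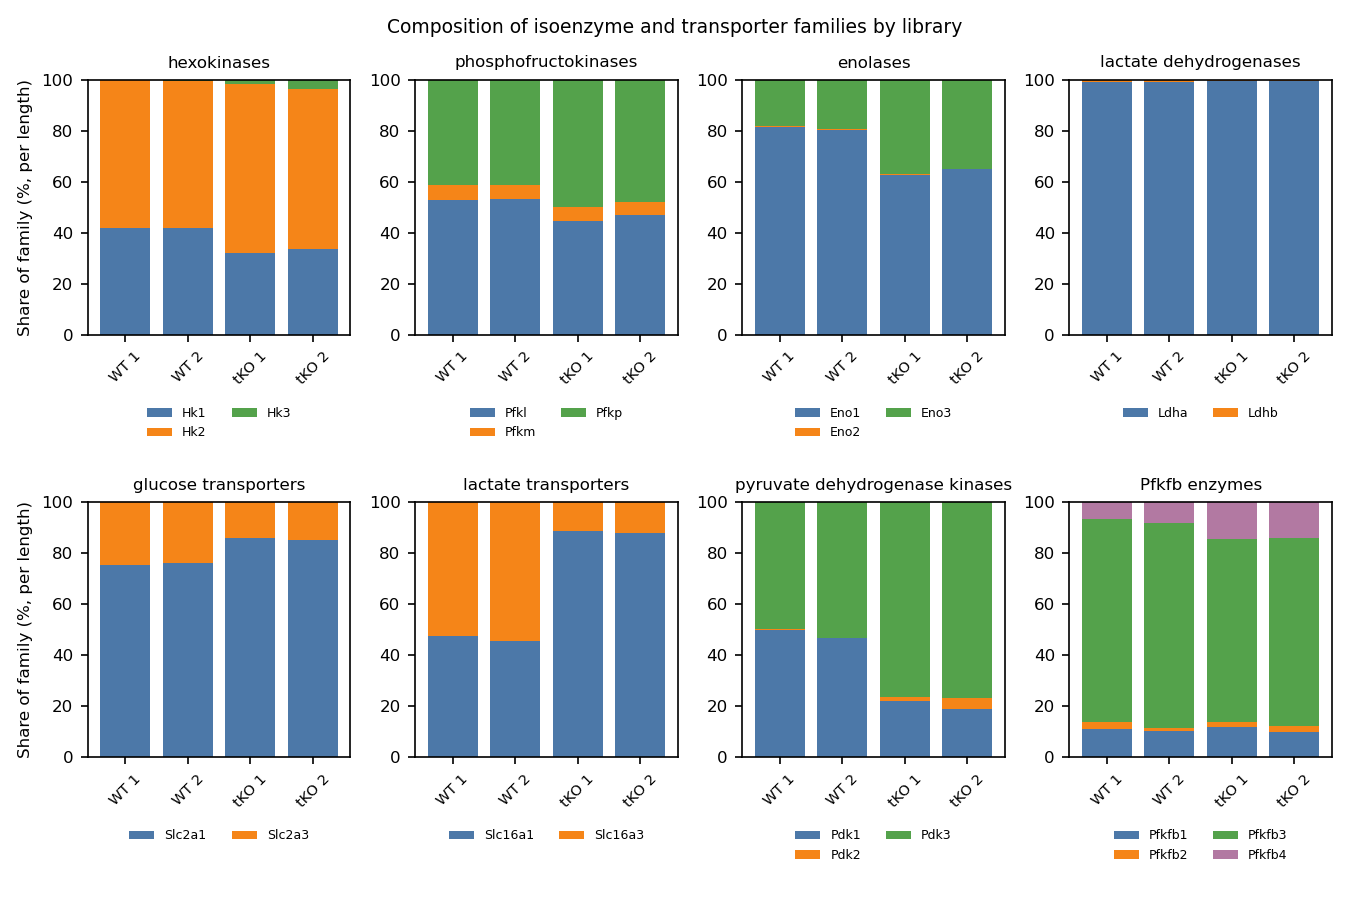
Share of each isoenzyme in its step (percent of the summed level per length of merged exons), as stacked bars for each of the 4 libraries. The change is widest for the lactate transporters, where Slc16a3 takes 53.5% in WT and 11.6% in Mek1/2-tKO.

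Per length of merged exons, the order of the genes by level in WT was led by Ldha at 1268 and 1273 CPM per kilobase. Pkm (697 and 733) and Aldoa (694 and 711) followed and did not differ beyond their spread, and Tpi1 came next with 570 and 583. In Mek1/2-tKO Ldha was again first with 686 and 670 CPM per kilobase, but Aldoa (394 and 393) lay above Pkm (274 and 273), and Tpi1 had 243 and 229. At the lower end in WT stood Hk3, Pdk2 and Pfkfb2, each below 0.4 CPM per kilobase.

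Neighbouring genes of the same metabolism were read from a list of 24 further genes of these steps. Of these 24, 13 had enough counts to be tested, 2 were called lower and 3 higher, with a median log2 fold change of -0.18. These counts are near the shares over all genes tested, 16.4% lower and 19.3% higher. The 2 lower genes belong to the phosphatase that switches pyruvate dehydrogenase on, Pdp2 (catalytic subunit, log2 fold change -0.85) and Pdpr (regulatory subunit, -0.76). Txnip, an inhibitor of glucose uptake, was called higher (log2 fold change 1.57, SE 0.09, adjusted p = 5.59e-09 in edgeR's quasi-likelihood test), as were Slc2a6, a glucose transporter family gene (0.74), and Slc16a7, which had 1 and 5 counts in WT and 16 in each Mek1/2-tKO library. Bsg, the chaperone that MCT1 and MCT4 need at the cell surface, had 629 and 622 CPM in WT and 527 and 490 CPM in Mek1/2-tKO and was not called (log2 fold change -0.30). In the pentose phosphate pathway, which branches off after hexokinase, 3 of 8 genes were called lower (Pgd -0.76, H6pd -0.65 and Tkt -0.61) and 1 higher (Pgls 0.68), and the median was -0.16 on the log2 scale. In the tricarboxylic acid cycle, which takes up the acetyl-CoA, 3 of 16 were called lower (Ogdh -0.72, Suclg2 -0.68 and Cs -0.62) and 0 higher by edgeR's quasi-likelihood test, with a median of -0.14. Without the 1.5-fold threshold, 6 of these 16 genes were lower and 4 higher in the same test. Over all 14330 genes tested, 3903 were lower and 3983 higher in that way. At an unadjusted p under 0.05, 8 of the 16 were lower and 4 higher. Of all 14330 genes, at least 3903 were lower and 3983 higher at that p, because they passed at an adjusted p. With the 1.5-fold threshold, DESeq2 called 3 lower and 0 higher.

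Regulators of glycolytic genes were read beside them. Hif1a, which encodes the alpha subunit of HIF-1, had 223 and 205 CPM in WT and 84.5 and 81.6 CPM in Mek1/2-tKO (log2 fold change -1.37, called lower). Myc had 263 and 289 CPM in WT and 112 and 130 CPM in Mek1/2-tKO (log2 fold change -1.19, called lower). Irf4, a factor induced by T-cell receptor signals, had 577 and 549 CPM in WT and 186 and 209 CPM in Mek1/2-tKO (log2 fold change -1.51, called lower). These are mRNA levels, and whether they bear on the levels of the glycolytic genes was not tested.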

How the data were processed

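The authors trimmed the reads with Trimmomatic 0.36, mapped them to GRCm38, counted the reads with a unique position on each gene (featureCounts, Subread 1.5.1) and deposited raw counts per gene and library, without normalization. Which annotation release was counted, and with which strand setting, was not given in the sources used here. Symbols were matched for 54723 of 54752 Ensembl identifiers. A second identifier named Aldoa was left out of the 40 genes, because it had 2 to 18 counts per library.

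Counts were filtered (filterByExpr), scaled by TMM and compared with edgeR 4.0.16 in R 4.3.3 by a robust quasi-likelihood fit over all 14330 genes tested, with Benjamini-Hochberg adjustment. The common dispersion was 0.00842 (biological coefficient of variation 0.0918). Replicates differed by more than sampling noise (chi-square per gene 4.07 in WT and 10.1 in Mek1/2-tKO). A gene at 0 in a library may have up to 3 counts, 0.158 to 0.184 CPM, for counting error only. Counts were simulated for this comparison with 200 changed genes among 14074. From them edgeR recovered 89% at a log2 fold change of 1 and 99% at 2, and called 7 unchanged genes. Every simulated gene had the common dispersion in both genotypes, and far fewer genes changed than the 35.8% called here. The rates may therefore not hold for these libraries, or for genes with few counts. Alternatives were DESeq2 1.42.0, glmTreat, other scalings, filters and thresholds, a replicate block and leaving out each library. Levels between genes are CPM per kilobase of the deposited gene length, which is that of the merged exons. Promoters are RefSeq (GRCm38.p6). Shared sequence was counted in 75-base windows of the reference transcripts. All members are given by name, with values for each library where a gene was called at 2-fold or leads its role. The members, lists and tests were chosen with earlier results of these data known. Proteins were not analysed here.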

Additional observations from a re-analysis of the deposited data

How the results depend on the processing

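Of the 40 genes, 19 to 23 were called lower under every alternative that kept the 1.5-fold threshold, against 21 as reported, with 15 at a threshold of 2-fold and 27 without a fold threshold. The median log2 fold change was -0.75 with at least 10 counts in every library, where Hk3 and Pdk2 were not tested. The summed level in Mek1/2-tKO was 44.9% of WT with library size alone and 47.7% with DESeq2's size factors.

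Of the 40 genes, 4 were called higher as reported, 2 with at least 10 counts or a 2-fold threshold, and 2 to 4 when each library was left out. Over all genes, 1262 were lower and 1680 higher with glmTreat, 1040 and 1725 at 2-fold, and 3903 lower without a fold threshold. Library size alone gave 2849 lower and 2388 higher, and called Pfkfb3 and Dlat as lower. Dlat was also called lower with no filter (-0.59), without WT replicate 2 (-0.61) and without Mek1/2-tKO replicate 2 (-0.62), and Pfkfb3 without Mek1/2-tKO replicate 2 (-0.59). Of the further pathway genes, 1 was lower and 1 higher with glmTreat, 0 lower at 2-fold and 5 lower without a fold threshold. Of the pentose phosphate genes, 1 was lower and 0 higher with glmTreat, 0 and 0 at 2-fold, and 2 higher without a fold threshold. Of the tricarboxylic acid cycle genes, 0 were lower with glmTreat or at 2-fold, 5 with library size alone, 6 without a fold threshold and 2 to 4 when each library was left out, and 4 were higher without a fold threshold. The log2 fold change changed sign for Pfkfb2 (0.40 without WT replicate 1 and 0.0065 without Mek1/2-tKO replicate 1, in a range of -0.58 to 0.40) and Pdhb (0.032 without Mek1/2-tKO replicate 2, in a range of -0.12 to 0.032).

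Libraries that share a replicate number did not deviate together from their group means (correlation -0.0262 across genes). With 2 libraries per genotype, this cannot decide whether the numbers pair them. With the replicate number as a block, 2300 genes were lower and 2652 higher, and 21 of the 40 genes were lower and 3 higher. Mpc1 lost its call under the block (log2 fold change 0.80), and none of the other 39 genes did. The cause of these changes was not tested. Depth limits the genes with few counts, Hk3, Pdk2, Pfkfb2 and Mpc1.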
